A study of Mus musculus with 87 samples.

Results

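Narrow H3K27me3 regions with a Suz12 region were taken from 2 lists of ChIP-seq regions in mouse embryonic stem cells (ESC). Both lists carry the label WT_DPeaks, in which WT stands for wild type, and the groups compared to make them are not named. A region of the H3K27me3 list was a member when its end minus its start was under 10000 bp and it shared at least 1 bp with a region of the Suz12 list. Of 6882 H3K27me3 regions, 2375 (34.5%) met this rule. Of the others, 329 had a Suz12 region and were 10000 bp wide or more, and 4178 had no Suz12 region. Width and overlap define the members and are given below as a description only.

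Suz12 is a core subunit of Polycomb repressive complex 2 (PRC2), the enzyme that methylates lysine 27 of histone H3. H3K27me3, the trimethylated form, marks genes that are kept silent or low, many of them regulators of development. In ESC, PRC2 is found mostly at CpG islands, stretches of DNA rich in unmethylated CG dinucleotides that often hold a gene start, and the mark spreads from there into flanking nucleosomes. Broad domains such as the Hox clusters are its best known targets. Most of the single CpG island promoters that PRC2 binds carry a much narrower block.

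The study asked what the alternatively spliced exon 4 of Suz12 does to PRC2 in ESC and in neuronal precursors (NP). It holds 87 samples of the ESC line 129-B13 (5 ChIP-seq samples outside those used here carry the names 129-B14 to 129-B18), of which 55 are ChIP-seq and 32 are RNA-seq. ESC grew in serum with LIF. NP were made from them through embryoid bodies, with retinoic acid from day 4 and harvest on day 8. The RNA-seq groups in ESC were wild type (WT, 3 samples), WT made to include exon 4 constitutively (CSex4, 2), cells described as a Suz12 knock-out that deletes exon 4 (Deltaex4, 2), the full Suz12 knock-out (KO, 3), and that knock-out carrying the long isoform (KO-L, 2), the short isoform (KO-S, 2), or either isoform with the 3D mutation downstream of exon 4, put into the Rosa26 locus (KO-L3D and KO-S3D, 2 each). In NP there were 4 samples of WT and 2 each of KO, KO-L, KO-S, CSex4 and Deltaex4. ChIP-seq of H3K27me3 and of Suz12 in ESC covered WT, CSex4, Deltaex4 and KO, and that of H3K27me3 also the rescues. Which of these samples enter the region lists is not stated. All rescue lines lack the endogenous Suz12, and the promoter of the rescue constructs and the number of clones per group are not given in the sources used here. The RNA-seq data are 13 tables of the authors' comparisons with 1 fold change per gene, so the spread between libraries enters through the deposited standard errors and values of single libraries are not analysed here. Nothing in the labels says that replicates came from separate cultures or clones, so p-values measure the spread between these samples only.

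The labels were checked against marker genes and the targeted gene. In the authors' deposited tables, mean normalised read counts of 8 pluripotency genes ran from 2450 to 29300 in ESC KO vs WT and from 334 to 2620 in NP KO vs WT. Those of 7 neural precursor genes ran from 0.506 to 1920 in the ESC table and from 297 to 4230 in the NP table. In the authors' deposited tables the log2 fold change of Suz12 mRNA against WT was -1.82 ± 0.22 (SE) in ESC KO, -1.05 ± 0.28 in KO-L, -0.83 ± 0.27 in KO-S and -0.06 ± 0.42 in KO-S3D. In the authors' deposited tables Suz12 stood at 0.02 ± 0.31 in ESC CSex4 and at -1.28 ± 0.40 in ESC Deltaex4 (unadjusted p 0.0013, adjusted p 1), a value beyond that of KO-L. The libraries labelled KO-L3D stood at -1.85 ± 0.28 in the authors' deposited table, the level of the knock-out. In NP KO the authors' deposited table gave -2.14 ± 0.33.

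Of the 2375 members, 1283 held the start of a protein-coding gene. The 250 bases before the start (RefSeq, GRCm38.p6) are shown for 7 genes whose start lay inside both the H3K27me3 and the Suz12 region: 3 with large rises in ESC KO (Esx1, Tns1, Pde8a), 2 with large falls (Foxp1, Frem2), and the 2 most highly expressed genes that were not called (Esrrb, Gnas). The rises and falls were the largest among genes with a mean count of at least 403, the median of tested genes, and some genes below that level rose more than Tns1 or Pde8a. They are printed 5′ to 3′ in the direction of transcription, with CG dinucleotides in capitals.
Esx1, chrX:137120327-137120576, minus strand: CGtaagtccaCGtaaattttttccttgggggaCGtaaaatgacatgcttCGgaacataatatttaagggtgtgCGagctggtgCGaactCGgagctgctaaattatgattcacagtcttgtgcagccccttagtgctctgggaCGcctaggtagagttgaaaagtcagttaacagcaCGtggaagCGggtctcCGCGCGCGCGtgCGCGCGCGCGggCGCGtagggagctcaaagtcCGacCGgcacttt
Tns1, chr1:74124549-74124798, minus strand: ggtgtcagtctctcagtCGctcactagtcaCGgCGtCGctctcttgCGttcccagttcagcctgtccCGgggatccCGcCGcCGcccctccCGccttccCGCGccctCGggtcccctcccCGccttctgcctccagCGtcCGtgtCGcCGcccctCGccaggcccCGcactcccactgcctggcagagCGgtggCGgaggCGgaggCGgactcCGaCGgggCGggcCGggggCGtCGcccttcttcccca
Pde8a, chr7:81213015-81213264, plus strand: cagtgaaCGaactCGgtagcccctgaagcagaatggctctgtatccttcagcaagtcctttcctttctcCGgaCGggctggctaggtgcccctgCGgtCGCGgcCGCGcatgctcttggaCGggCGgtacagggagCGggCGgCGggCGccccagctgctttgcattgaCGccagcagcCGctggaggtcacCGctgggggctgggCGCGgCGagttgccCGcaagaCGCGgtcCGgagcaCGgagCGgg
Foxp1, chr6:99520994-99521243, minus strand: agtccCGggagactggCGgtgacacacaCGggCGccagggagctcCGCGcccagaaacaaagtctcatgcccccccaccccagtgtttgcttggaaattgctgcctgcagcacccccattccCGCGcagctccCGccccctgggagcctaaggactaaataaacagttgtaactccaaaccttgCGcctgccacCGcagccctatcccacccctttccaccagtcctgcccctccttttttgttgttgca
Frem2, chr3:53657356-53657605, minus strand: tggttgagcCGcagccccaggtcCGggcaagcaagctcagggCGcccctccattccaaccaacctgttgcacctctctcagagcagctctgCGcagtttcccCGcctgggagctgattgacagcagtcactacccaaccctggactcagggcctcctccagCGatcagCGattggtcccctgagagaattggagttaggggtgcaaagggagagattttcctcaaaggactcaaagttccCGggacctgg
Esrrb, chr12:86421394-86421643, plus strand: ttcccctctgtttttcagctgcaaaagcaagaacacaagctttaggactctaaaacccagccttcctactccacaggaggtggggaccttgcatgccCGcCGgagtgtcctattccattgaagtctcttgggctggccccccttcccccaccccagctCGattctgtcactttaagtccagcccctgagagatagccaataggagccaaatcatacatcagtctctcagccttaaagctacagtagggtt
Gnas, chr2:174327499-174327748, plus strand: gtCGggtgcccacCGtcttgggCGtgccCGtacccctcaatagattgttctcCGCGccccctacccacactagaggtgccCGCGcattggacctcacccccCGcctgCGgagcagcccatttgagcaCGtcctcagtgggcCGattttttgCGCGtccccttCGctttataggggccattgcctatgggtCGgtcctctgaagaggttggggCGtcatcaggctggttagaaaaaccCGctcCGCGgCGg

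Esx1, an X-linked homeobox gene of the placenta, had 24 CG dinucleotides in these 250 bases. Tns1, a focal adhesion protein, had 30, and Pde8a, a cyclic AMP phosphodiesterase, had 27. Foxp1, a forkhead transcription factor, had 11 at the start shown, which is 1 of its 3 starts, and Frem2, an extracellular matrix protein, had 8. Gnas, which codes for the stimulatory G protein alpha subunit, had 21 at 1 of its 4 starts. Esrrb, a transcription factor of naive pluripotency, had 3 at 1 of its 2 starts.

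The same window was compared over all 1590 protein-coding starts linked to narrow regions, that is, starts inside a region or within 2500 bp of it. Their median GC content was 65.2% and their median number of CG dinucleotides was 18. For all 21263 protein-coding starts the medians were 55.6% and 10. The ratio of observed to expected CG dinucleotides had a median of 0.72 at narrow regions, 0.69 at the 289 starts of broad regions, 0.63 at the 1858 starts of regions without Suz12, and 0.53 over all starts. Of the starts at narrow regions 66.2% reached the ratio of 0.6 that is commonly used for CpG islands, against 44.7% of all starts. The motif CGCG, which reads the same on both strands, occurred in 71.3% of windows at narrow regions and in 43.6% of all windows. GGGCGG, searched on both strands, occurred in 66.2% and 42.6%, CACGTG in 7.67% and 6.63%, and TATAAA, on both strands, in 5.60% and 11.6%. These are matches of letters and not measured binding sites. The 363 starts of genes called higher in ESC KO had a median of 21 CG dinucleotides, against 18 at the 999 starts of tested genes that were not called.

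Narrow regions had a median width of 4834 bp (quartiles 3646.5 and 6321.5 bp), and their full range was 819 to 9945 bp. In all, 2331 of them met 1 Suz12 region, 40 met 2 and 4 met 3. The Suz12 regions had a median width of 2160 bp and covered a median of 46.3% of the H3K27me3 region (quartiles 36.9% and 57.9%). Coverage was complete in 30 regions and under 10% in another 30. Each region carries a value from the authors' DiffBind analysis at a false discovery rate of 5%, and the file does not give the kind of this value (p or false discovery rate) or the direction in which a region differed. These values had a median of 1.01e-29 in the authors' deposited table.

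The 5 members with the smallest values in the authors' deposited table included regions at 2 named regulators of development and 1 Polycomb gene. The smallest value (1.92e-110) belonged to chr11:75164199-75173417, which is 9219 bp wide, holds the start of Hic1, a transcriptional repressor, and was 93.2% covered by Suz12. The next (1.15e-109) was chr1:74945339-74954524 at Ihh, a Hedgehog ligand, with 72.7% covered. The region chr11:119032952-119040981 (1.3e-100) held the start of Cbx8, the subunit of Polycomb repressive complex 1 (PRC1) that reads H3K27me3. The regions chr11:119085677-119095507 (9.14e-106) and chr14:34814104-34824048 (3.49e-99) had no start in the table of starts used. The narrowest members were 819 and 829 bp wide. At the width limit, 2 members of 9945 bp stood just inside, and regions of 10039 and 10051 bp, the latter at the axon guidance receptor gene Robo3, stood just outside.

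Members could be placed around a gene start for 1433 regions, which were linked to 1419 protein-coding genes. In 1283 regions the start lay inside. Of the other 942 regions, 496 lay near an end of a gene whose start is not in the table of starts, 275 overlapped a gene body only, and 171 lay outside protein-coding genes. Of the linked genes, 15 were also linked to a broad region and 129 to a region without Suz12. Of 2375 narrow regions, 56 (2.36%) lay within 10000 bp of a broad one, against 160 of 4178 regions without Suz12 (3.83%). Another narrow region lay that close to 295 of them (12.4%). There are 2375 narrow and only 329 broad regions, so the shares of 2.36% and 12.4% cannot be compared directly. Hairpins of 23 microRNAs lay inside 20 of the regions, among them Mir9-2, Mir137, Mir203, Mir375, Mir34b and Mir34c.

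Both marks extended further into the gene than before it. Among 1065 regions with a single start inside, the H3K27me3 region reached a median of 1934 bp before the start and 3031 bp after it, and 76.0% of the regions were longer on the gene side. Suz12 covered the start itself in 1023 of them (96.1%). The Suz12 region reached 684 bp before and 1463 bp after the start and was longer on the gene side in 85.6%. In 154 broad regions with 1 start, the H3K27me3 medians were 6386 and 8438 bp, and 64.9% were longer on the gene side.

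**Figure D1:**
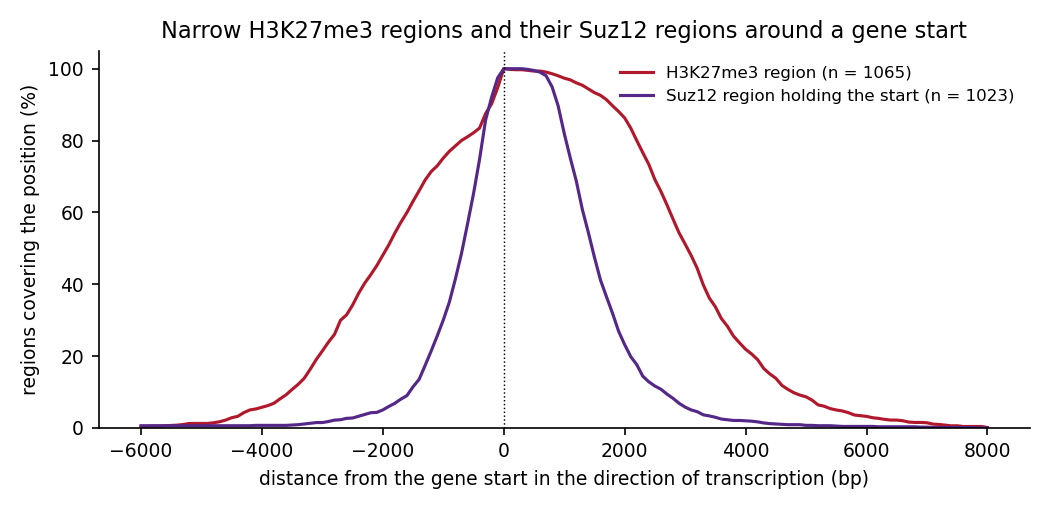
Share of narrow regions (vertical axis, percent) that covered each position around the gene start (horizontal axis, bp, transcription to the right), for the H3K27me3 region in 1065 regions with 1 start and for the Suz12 region in the 1023 of them in which it held the start. Both curves fall more slowly to the right, with median edges at 3031 and 1463 bp after the start against 1934 and 684 bp before it.

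Loss of Suz12 in ESC raised many genes at narrow regions. Of the 1419 linked genes, 1399 were in the authors' deposited table, 1391 had a fold change and 1258 had an adjusted p-value. With 0.05 as the limit on the adjusted p, the authors' DESeq2 test called 329 of these higher (26.2%) and 50 lower (3.97%), against 11.0% and 7.27% of all 16918 genes tested. Because tested genes had passed the authors' filter on low counts, the median was also taken over all linked genes with a fold change: both medians were 0.65 on the log2 scale, beside 0.01 over all genes tested. At broad regions 103 of 198 tested genes (52.0%) were higher with a median of 1.95, and at regions without Suz12 286 of 1479 (19.3%) with a median of 0.33. Beyond WT in their label, the contrast behind the region lists is not stated, so it is unknown whether they are independent of the knock-out. Low expression moved with the result: over all genes 19.2% of those with a mean count of 10 to 100 were called higher and 4.46% of those above 1000. At narrow regions the shares were 22.6% and 18.9%, and 38.7% between 100 and 1000 against 14.1% of all genes there.

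The 8 largest rises among linked genes with a mean count at or above the median of tested genes differed in function, and in every comparison below the genes said to rise or fall most were chosen above that level. In the authors' deposited table Esx1 rose by 4.14 ± 0.25 (log2, SE; adjusted p 9.23e-58) and Tns1 by 3.46 ± 0.25 (adjusted p 1.02e-41). Khdc3, a maternal-effect gene of oocytes and early embryos, rose by 3.30 ± 0.43 and Pde8a by 2.93 ± 0.26 in the authors' deposited table. The axon guidance ligand Slit2 rose by 2.51 ± 0.27, the lysophosphatidic acid receptor Lpar1 by 2.44 ± 0.32 and the phosphatase subunit Ppp2r2c by 2.37 ± 0.29 in the authors' deposited table. A PRC1 subunit was also among them: Bmi1 rose by 2.46 ± 0.29 in the authors' deposited table. Of the 4 subunits of PRC1 and PRC2 at narrow regions, 3 rose. Cbx8 rose by 3.64 ± 0.57 and Pcgf5 by 0.65 ± 0.22, while the PRC2-associated factor Phf19 stood at -0.51 ± 0.24 (adjusted p 0.117) in the authors' deposited table.

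Genes that fell were fewer. Foxp1 fell by 2.74 ± 0.19 (adjusted p 1.82e-42) and Frem2 by 2.11 ± 0.28 (adjusted p 4.7e-12) in the authors' deposited table. The neuronal phosphoprotein gene Crmp1 stood at -1.78 ± 0.31, the ubiquitin ligase Trim2 at -1.68 ± 0.19 and the endocytic receptor Lrp2 at -1.63 ± 0.23 in the authors' deposited table. Sox11, a neural transcription factor, stood at -1.57 ± 0.22, the receptor adaptor Gab1 at -1.53 ± 0.28 and the zinc-finger factor Zfp423 at -1.34 ± 0.22 in the authors' deposited table. All of these falls passed the test. The Sox11 region was among the smallest, 1198 bp at chr12:27340955-27342152, and lay 566 bp from the start. Several genes with strong regions were not called at all: Hic1 stood at -0.02 ± 0.95 and Ihh at 0.07 ± 1.19 in the authors' deposited table, with mean counts of 13.2 and 6.87. Their standard errors were wide, so these values do not show that the genes were unchanged.

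The members were also counted by function, and these counts stand beside 26.2% higher and 3.97% lower over all tested members and 11.0% and 7.27% over all genes. The groups were defined by gene symbol with earlier results of these data known, and none was tested against the other members. Among 39 tested signalling ligands, receptors and inhibitors, 12 were higher and 2 lower (median 0.87). Examples in the authors' deposited table were the ligand Bmp4 (0.87 ± 0.32) and the receptor Tgfbr1 (0.55 ± 0.19), which rose, and the Notch ligand Jag2 (-0.73 ± 0.21), which fell. Of 67 tested ion channels and neurotransmitter receptors, 12 were higher and 0 lower (median 0.89). They included the cation channel Trpv4 (2.14 ± 0.33), the potassium channel subunit Kcns3 (1.61 ± 0.36) and the calcium channel subunit Cacnb3 (0.65 ± 0.22) in the authors' deposited table. Of 41 tested adhesion and axon guidance genes, 12 were higher and 2 lower (median 0.88). In the authors' deposited table the receptor Ephb2 rose (0.90 ± 0.22), whereas the ligand Efnb2 (-1.16 ± 0.36) and the semaphorin receptor Nrp2 (-0.64 ± 0.20) were the 2 that fell.

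Solute carriers had 8 of 41 tested members higher and 1 lower (median 0.73), with the glutamate transporter Slc1a1 at 2.73 ± 0.38 and the zinc transporter Slc30a2 at 1.39 ± 0.21 in the authors' deposited table. Extracellular matrix genes had 5 of 24 higher and 1 lower (median 0.71). The protease Adamts9 rose by 1.48 ± 0.39, the collagen Col5a1 by 1.47 ± 0.36 and fibrillin, Fbn1, by 0.78 ± 0.27 in the authors' deposited table. Of 7 tested orphan and adhesion G protein-coupled receptors, 3 were higher: Gpr50 (3.51 ± 0.80), Gpr83 (2.55 ± 0.68) and Adgrg6 (1.68 ± 0.58) in the authors' deposited table. The cell cycle inhibitor Cdkn2b rose by 1.36 ± 0.48 in the authors' deposited table (adjusted p 0.0287). Of 53 tested developmental transcription factors, 9 were higher and 6 lower (median 0.42). Id3, an inhibitor of basic helix-loop-helix factors, rose by 1.35 ± 0.30 and the homeobox gene Meis2 by 3.21 ± 0.29 in the authors' deposited table. Foxp1 and Sox11, with values given above, were among the 6 that fell. Markers of another lineage moved with these counts, since 4 of 5 trophoblast markers were higher in ESC KO (summed mean count 1060, single genes from 8.92 to 498). Of the 5 markers, Eomes lies at a narrow region, and the part of such cells in the result was not tested. Whether fewer cells of a type or less RNA per cell lie behind a difference cannot be told apart in these bulk samples.

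**Figure D2:**
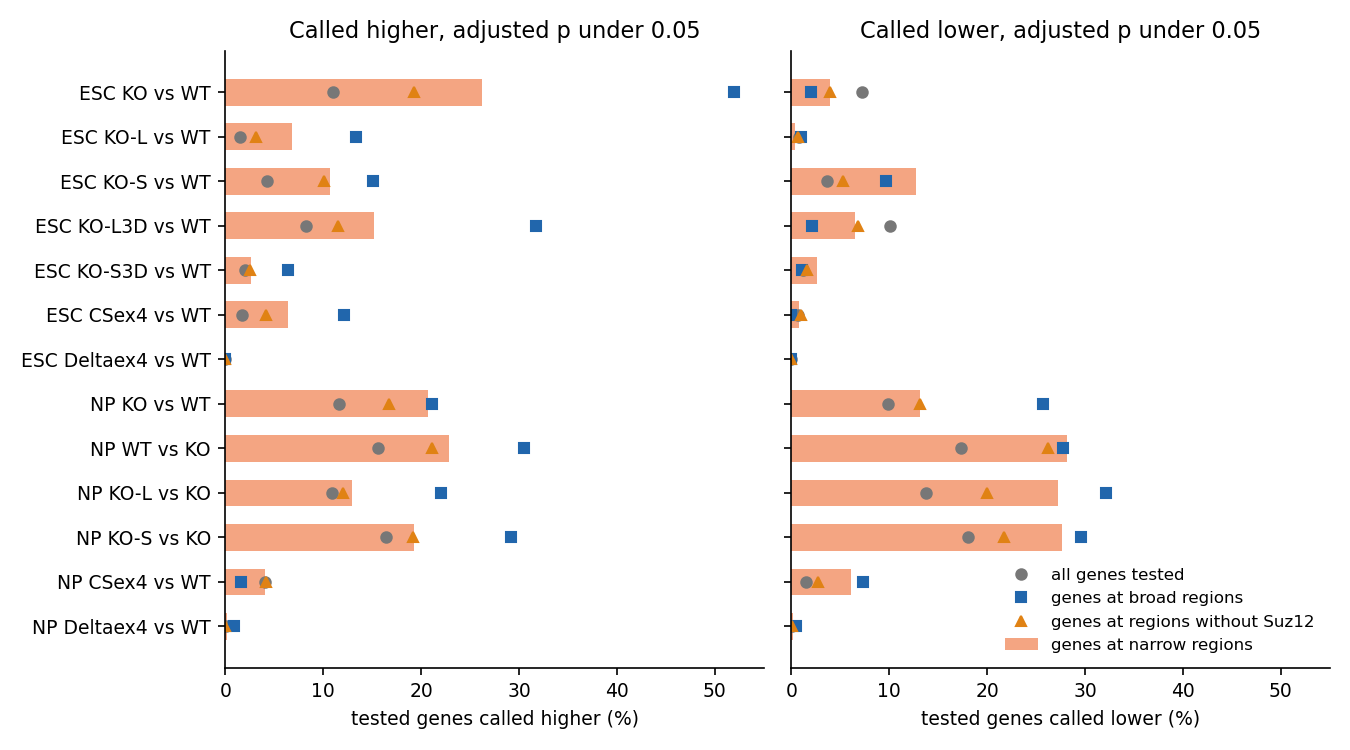
Percent of tested genes called higher (left) and lower (right) in the authors' 13 deposited tables, with 0.05 as the limit on the adjusted p. Bars are genes linked to narrow regions, circles all genes tested, squares genes at broad regions and triangles genes at regions without Suz12. In ESC KO the bar reaches 26.2% higher and 3.97% lower, and in ESC KO-S 10.7% higher and 12.7% lower.

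The long and the short isoform were compared in the knock-out to ask what each restores. Suz12 mRNA lay below WT in both rescues, as given above. In the comparisons with WT, the effects of the isoform and of a lower Suz12 level therefore cannot be told apart. With the long isoform, genes at narrow regions still lay above WT: of 973 tested genes, 66 (6.78%) were higher and 4 (0.411%) lower in KO-L, against 1.46% and 0.771% of all genes, and the median log2 fold change was 0.52 (0.63 over all linked genes with a fold change). With the short isoform they were split. In KO-S, 107 of 1000 (10.7%) were higher and 127 (12.7%) lower, against 4.28% and 3.63% of all genes, and the median was 0.06 (-0.05 over all linked genes with a fold change). The middle of the distribution was also wider in KO-S, with quartiles of -1.08 and 0.89, than in KO-L, with quartiles of 0.04 and 1.09. At broad regions 14 of 93 tested genes were higher and 9 lower in KO-S, and at regions without Suz12 130 of 1282 were higher and 68 lower (median 0.33). Lineage markers were measured beside these counts. Primitive endoderm markers had a median of 3.04 in KO-S (summed mean count 3160) and -0.59 in KO-L (summed mean count 1230), with 0 of 5 called in either. Of 4 tested trophoblast markers 2 were higher in KO-L (median 1.61) and 1 in KO-S (median 1.12), and of 8 pluripotency markers 2 were higher and 1 lower in KO-S and 0 were called in KO-L. Their part in the result was not tested.

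The difference between the isoforms was tested gene by gene from the 2 deposited log2 fold changes and their standard errors, with Benjamini-Hochberg adjustment over 14378 genes. Both tables share the WT libraries, which makes this standard error too large and the counts low estimates. Of 994 tested genes at narrow regions, 133 (13.4%) were lower in KO-S than in KO-L and 26 (2.62%) higher, against 2.59% and 1.35% of all genes, and the median difference was -0.39. At broad regions 6 of 92 were lower and 2 higher (median -0.31), and at regions without Suz12 61 of 1272 were lower and 33 higher (median 0.11). The larger share of lower genes at narrow regions than in the other classes is a description, as the classes were not tested against each other.

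Dsp and Id3 were above WT with the long isoform and below it with the short one. Dsp, which codes for the desmosomal protein desmoplakin, stood at 1.76 ± 0.34 in KO-L and -2.02 ± 0.33 in KO-S in the authors' deposited tables, a difference of -3.78 ± 0.47 (adjusted p 4.08e-12). For Id3 the authors' deposited tables gave 2.10 ± 0.33 in KO-L and -1.74 ± 0.43 in KO-S, a difference of -3.84 ± 0.54 (adjusted p 1.21e-09). Rragd, a GTPase of the mTORC1 pathway, had 0.71 ± 0.32 (adjusted p 0.384, not called) in KO-L and -2.70 ± 0.36 in KO-S in the authors' deposited tables, a difference of -3.41 ± 0.48. These 3 genes were lower with the short than with the long isoform, and Dsp and Id3 were higher than WT in KO, at 1.07 ± 0.20 and 1.35 ± 0.30 in the authors' deposited table.

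Other genes with large falls in KO-S differed in function. Nrp2 stood at -2.92 ± 0.31 in KO-S and -0.54 ± 0.33 in KO-L in the authors' deposited tables. The RNA-binding protein gene Igf2bp2 stood at -2.73 ± 0.33 and -0.61 ± 0.41, and the kinesin gene Kif1a at -2.57 ± 0.31 and 0.62 ± 0.39, in the authors' deposited tables. Bcor, a corepressor that belongs to a variant PRC1, stood at -1.80 ± 0.29 and 0.27 ± 0.36 in the authors' deposited tables, and Slit2 at -1.85 ± 0.60 and 0.87 ± 0.51. The differences between the rescues all passed the test, with adjusted p of 3.44e-05 for Nrp2, 0.00361 for Igf2bp2, 8.11e-08 for Kif1a, 0.000751 for Bcor and 0.0212 for Slit2. In KO itself, Slit2 was at 2.51 ± 0.27 and Bcor at 0.79 ± 0.18 in the authors' deposited table, the opposite direction to KO-S. In KO the authors' deposited table gave 0.66 ± 0.34 for Igf2bp2 (adjusted p 0.167) and -0.64 ± 0.20 for Nrp2 (adjusted p 0.0139).

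A smaller set was higher with the short isoform. Inhbb, an activin subunit, stood at 1.54 ± 0.30 in KO-S and -1.46 ± 0.47 in KO-L in the authors' deposited tables (difference 3.00 ± 0.56, adjusted p 2.43e-05). Kank4, an adaptor of the cell cortex, stood at 3.58 ± 0.34 and 0.62 ± 0.55, and the Ras-related GTPase Mras at 2.12 ± 0.28 and -0.49 ± 0.40, in the authors' deposited tables. The intermediate filament gene Prph stood at 2.72 ± 0.33 and 0.90 ± 0.45 in the authors' deposited tables (adjusted p of the difference 0.0361). Khdc3 and Tns1 rose in both rescues, to 4.16 ± 0.38 and 3.88 ± 0.34 in KO-S and to 2.21 ± 0.40 and 2.13 ± 0.44 in KO-L in the authors' deposited tables. The genes most raised in KO-L by the same rule were Col5a1 (2.34 ± 0.38), Id3 and the intermediate filament gene Vim (2.09 ± 0.34) in the authors' deposited table. Col5a1 was at -0.12 ± 0.40 in KO-S (adjusted p 0.936), and the 2 rescues differed by -2.46 ± 0.55 (adjusted p 0.000826). The 4 falls in KO-L in the authors' deposited table were Trim2 (-0.96 ± 0.29, adjusted p 0.0388), the pro-apoptotic gene Hrk (-2.85 ± 0.65), the G protein subunit Gna14 (-2.21 ± 0.49) and the lipoprotein and reelin receptor Vldlr (-1.98 ± 0.44).

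**Figure D3:**
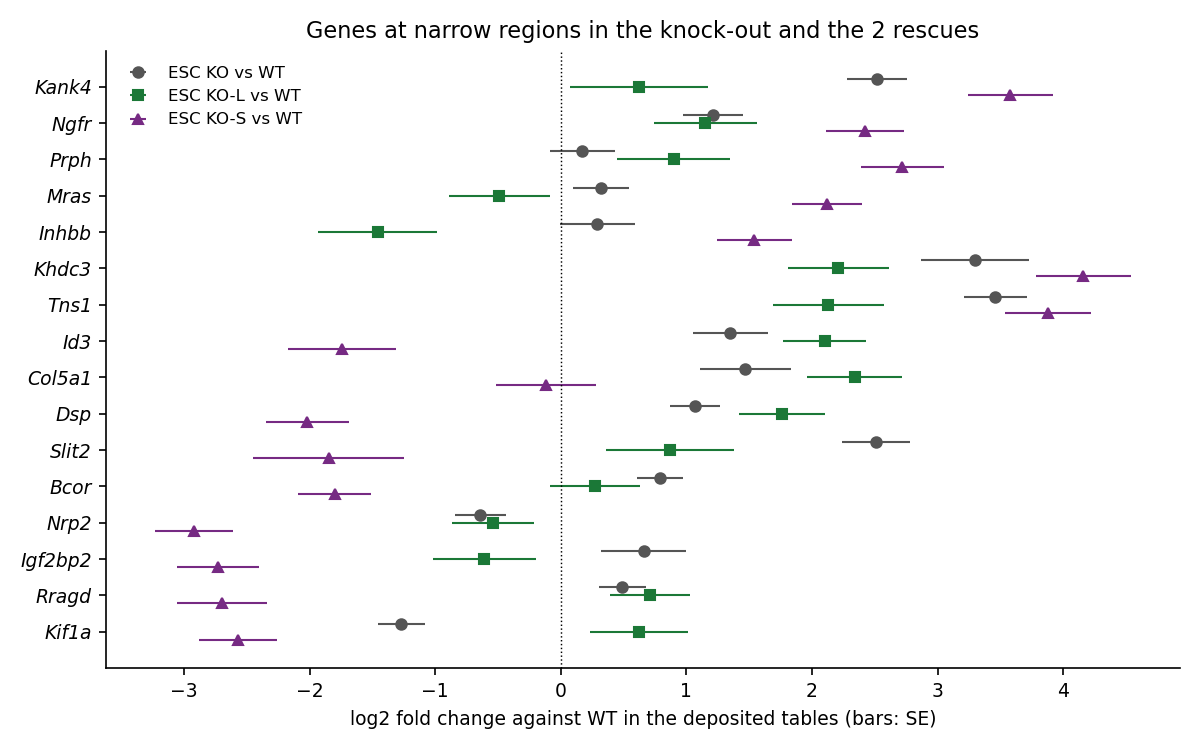
Log2 fold changes against WT (horizontal axis) with their standard errors as bars for 16 genes at narrow regions (vertical axis), in KO, KO-L and KO-S of ESC, from the authors' deposited tables. Dsp, Id3, Slit2 and Bcor lie right of 0 in KO and left of it in KO-S, while Inhbb lies left of 0 in KO-L (-1.46) and right of it in KO-S (1.54).

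The cells labelled as 3D rescues were compared with WT and with the rescues without the mutation. Suz12 mRNA in the libraries labelled KO-L3D was at the level of KO, so they are not shown to be a rescue, and the effect of the mutation and of low Suz12 cannot be told apart there. In the libraries labelled KO-L3D, 165 of 1085 tested genes at narrow regions (15.2%) were higher and 71 (6.54%) lower, against 8.22% and 10.1% of all genes, with a median of 0.30. Esx1 (4.90 ± 0.44), Meis2 (4.53 ± 0.42) and Tns1 (4.11 ± 0.39) rose most, and Crmp1 (-3.97 ± 0.38), Frem2 (-3.15 ± 0.42) and Foxp1 (-2.70 ± 0.31) fell most in the authors' deposited table. Of the trophoblast markers 4 of 5 were higher there too (summed mean count 3270), and their part in the result was not tested. Set against KO-L, 20 of 1036 tested genes (1.93%) were higher and 58 (5.60%) lower in the libraries labelled KO-L3D, where all genes gave 1.76% and 3.12%.

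In KO-S3D, 26 of 972 tested genes were higher and 26 lower (2.67% each), against 2.05% and 1.18% of all genes, with a median of 0.00. In the authors' deposited table the glycosyltransferase gene Galnt6 (2.54 ± 0.55), Bmp4 (2.07 ± 0.40) and the antiviral factor Zc3hav1 (2.04 ± 0.38) rose most. Kif1a (-3.17 ± 0.39), Frem2 (-2.44 ± 0.53) and the immunoglobulin superfamily gene Prtg (-2.36 ± 0.46) fell most in the authors' deposited table. Against KO-S, 17 of 991 genes were higher (1.72%) and 7 lower (0.706%), where all genes gave 0.504% and 0.228%. The estimate of Suz12 mRNA given above lay nearer to WT in KO-S3D than in KO-S. The effects of the mutation and of the Suz12 level therefore cannot be told apart here either. Igf2bp2 was among those that differed, with 0.55 ± 0.37 in KO-S3D and -2.73 ± 0.33 in KO-S in the authors' deposited tables (difference 3.28 ± 0.50, adjusted p 1.71e-07). KO-S3D and the libraries labelled KO-L3D differed at 1 higher and 1 lower gene of 1027, against 0.0270% of all genes in each direction. The higher gene was Lef1, a transcription factor of the Wnt pathway (4.29 ± 0.73, adjusted p 2.94e-05), and the lower gene was Nrp2 (-2.12 ± 0.49, adjusted p 0.0335), with -1.90 ± 0.39 in KO-S3D and 0.22 ± 0.30 in the libraries labelled KO-L3D in the authors' deposited tables.

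The exon 4 lines carry the change in the endogenous gene, and their comparison asks what fixing or removing the exon does. In ESC CSex4, 62 of 966 tested genes at narrow regions (6.42%) were higher and 8 (0.828%) lower, against 1.72% and 0.695% of all genes. Their median log2 fold change was 0.41, beside 0.47 at broad regions and 0.09 at regions without Suz12. The AP-1 factor Fosl2 (2.72 ± 0.55), the actin crosslinker Flnc (2.68 ± 0.48) and the macrophage growth factor Csf1 (2.62 ± 0.51) rose most in the authors' deposited table. Esrrb (-1.71 ± 0.38), the oxygen sensor Egln3 (-1.59 ± 0.35) and the synaptic scaffold gene Dlgap3 (-1.59 ± 0.46) fell most in the authors' deposited table. Pluripotency markers moved too, with 3 of 8 lower in CSex4 (median -0.95, single mean counts 1810 to 25200), and Esrrb and Klf4 of these lie at narrow regions. The part of such a shift in the result was not tested.

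In ESC Deltaex4, Suz12 itself stood at -1.28 ± 0.40 in the authors' deposited table. The authors' DESeq2 test called no gene at a narrow region higher or lower (0 of 1373, and 0% of all genes in each direction). Of these 1373 genes, 42 (3.06%) had an unadjusted p under 0.05, against 0.666% of all genes. Without any effect a share of 0.05 is expected at this limit, and both shares lie under it. They therefore show no excess of small p-values. The median of the 1373 was -0.18, against 0.02 over all genes, -0.45 at broad regions and 0.14 at regions without Suz12. Of the 1373, 39.8% lay above 0. The difference of Deltaex4 from CSex4 passed the test for 0 higher and 3 lower genes of 990, against 0.00696% and 0.0696% of all genes, and its median was -0.59. The third was the inositol kinase gene Itpkb (-3.64 ± 0.80, adjusted p 0.013). Dsp and Flnc were the other two, with 2.41 ± 0.46 and 2.68 ± 0.48 in CSex4 and -0.48 ± 0.46 and -0.21 ± 0.48 in Deltaex4 in the authors' deposited tables (adjusted p 0.015 and 0.0272). The absence of calls does not show that these genes were unchanged.

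Within the members, the medians moved with region width. The 1419 linked genes were split into 4 equal classes by the width of their widest region, from 1054 to 3836 bp in the first to 6430 to 9943 bp in the last. In ESC KO the median log2 fold change was 0.44, 0.61, 0.75 and 0.88 from the narrowest to the widest class. The share called higher moved little, from 25.8% and 23.8% to 28.5% and 26.7%. KO-L medians were 0.38, 0.49, 0.57 and 0.72 and Deltaex4 medians were -0.06, -0.20, -0.20 and -0.35 over the same classes. KO-S medians stayed between 0.04 and 0.08. By the share of the region covered by Suz12, the ESC KO medians were 0.74, 0.70, 0.61 and 0.59 from the least to the most covered class. Width was part of the rule, expression level was not matched between classes, and these values are a description.

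**Figure D4:**
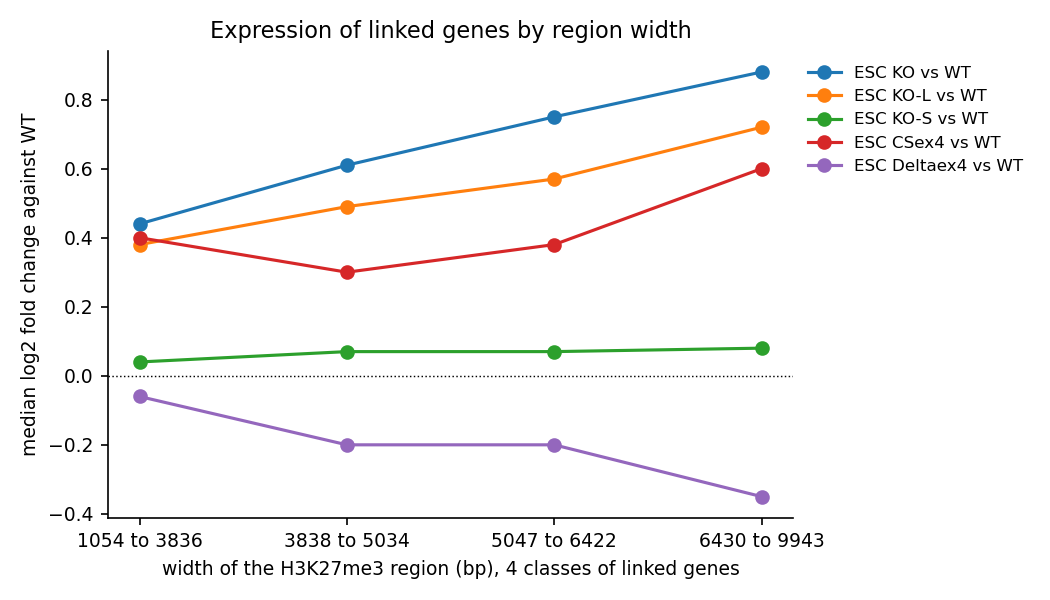
Median log2 fold change against WT (vertical axis) of tested genes linked to narrow regions, in 4 equal classes of the linked genes by region width (horizontal axis, bp), in 5 ESC comparisons of the authors' deposited tables. Medians run from 0.44 to 0.88 in KO and from -0.06 to -0.35 in Deltaex4, and stay between 0.04 and 0.08 in KO-S.

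The members, defined in ESC, were then followed into NP. In NP KO vs WT, 268 of 1292 tested genes (20.7%) were higher and 169 (13.1%) lower, against 11.6% and 9.85% of all genes, with a median of 0.30. The interferon-induced modifier Isg15 (6.44 ± 0.41), Cdkn2b (4.58 ± 0.41) and the immunoproteasome subunit Psmb8 (4.48 ± 0.41) rose most in the authors' deposited table. The neural transcription factors Nhlh2 (-7.29 ± 0.66) and Pou3f4 (-3.85 ± 0.52) and the atypical cadherin Fat3 (-4.03 ± 0.39) fell most in the authors' deposited table. Neural markers fell with them: 6 of 7 neural precursor markers (median -3.32, summed mean count 11300) and 3 of 3 neuron markers (median -4.74, summed mean count 5220) were lower. Of 5 primitive endoderm markers 3 were higher (median 1.43, summed mean count 12400), as were 3 of 5 trophoblast markers (median 2.16, summed mean count 3780). Among the precursor markers, Hes5, Nes and Sox1 lie at narrow regions, and the part of these marker changes in the result was not tested.

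The other NP table with KO uses the other 2 WT samples and gives the comparison in the opposite direction. In NP WT vs KO, 301 of 1320 tested genes at narrow regions (22.8%) were higher in WT and 372 (28.2%) lower, against 15.6% and 17.3% of all genes. Hes5, a Notch effector of neural progenitors, was higher in WT by 10.38 ± 0.89, Nhlh2 by 8.23 ± 0.49 and the neuronal kinase Brsk2 by 6.71 ± 1.19 in the authors' deposited table. Isg15 (-6.66 ± 0.36), Psmb8 (-5.84 ± 0.38) and Gpr50 (-4.53 ± 0.34) were lower in WT in the authors' deposited table. Both tables share the KO samples and are not independent.

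The same groups were counted in NP KO, where 20.7% of all tested members were higher and 13.1% lower, and 11.6% and 9.85% of all genes. No difference between groups was tested. Developmental transcription factors had 3 of 54 tested members higher and 16 lower (median -0.67), and adhesion and axon guidance genes had 1 of 46 higher and 15 lower (median -0.39). Slit2, which rose in ESC KO, stood at -1.41 ± 0.35 in NP KO in the authors' deposited table. Signalling genes had 12 of 42 higher and 3 lower (median 0.65), and solute carriers had 19 of 43 higher and 3 lower (median 1.36), with Slc1a1 at 2.73 ± 0.55 in the authors' deposited table. Extracellular matrix genes had 5 of 24 higher and 3 lower, near the shares over all tested members. Ion channels had 8 of 69 higher and 6 lower, near the shares over all genes. Ihh, uncalled in ESC KO, rose by 2.74 ± 0.41 in NP KO in the authors' deposited table.

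**Figure D5:**
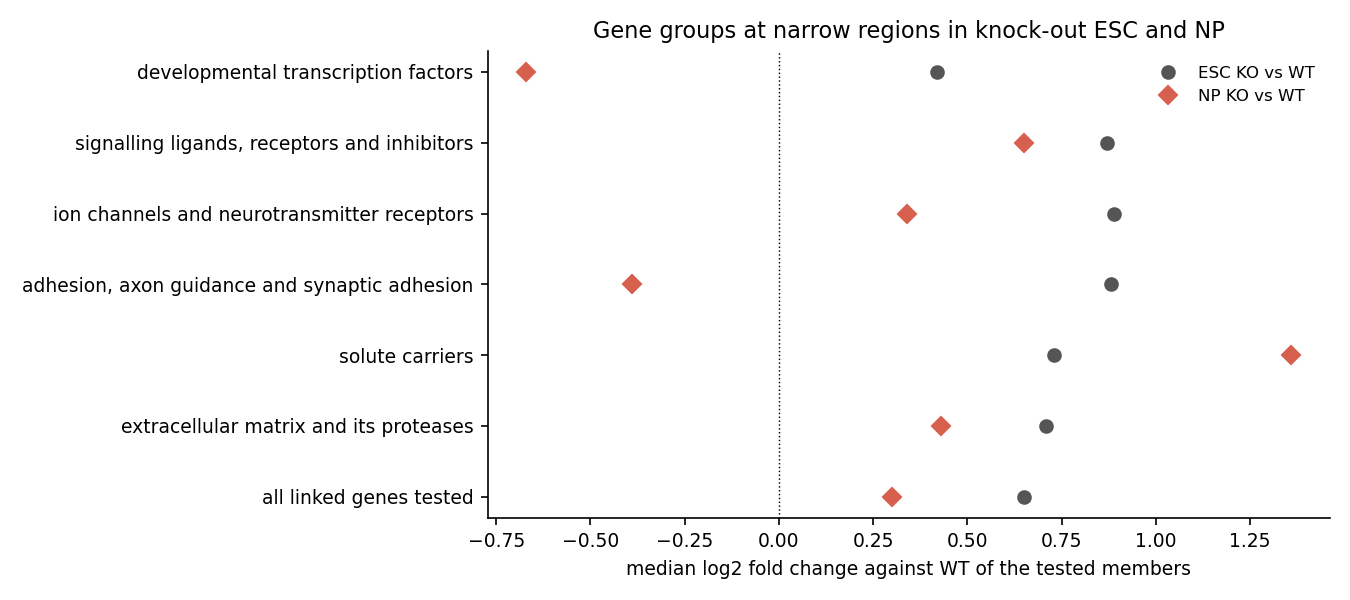
Median log2 fold change against WT (horizontal axis) of tested genes at narrow regions in 6 functional groups and in all linked genes, for KO in ESC (circles) and in NP (diamonds), from the authors' deposited tables. Developmental transcription factors lie at 0.42 in ESC and -0.67 in NP, and solute carriers at 0.73 and 1.36.

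ESC KO vs WT and NP KO vs WT share no library, so they could be set against each other directly. Of 1222 linked genes tested in both, 326 were higher in ESC KO and 258 in NP KO, and 92 were higher in both, which is 28.2% of the first list and 35.7% of the second. Of the 1222 genes, 21.1% were higher in NP KO, which is the base for the 28.2%. The base for the 35.7% is the 26.7% of the 1222 genes that were higher in ESC KO. Over all 15693 genes tested in both, 467 were higher in both, which is 26.3% of those higher in ESC KO and 26.7% of those higher in NP KO. The bases there were lower, at 11.1% higher in NP KO and 11.3% higher in ESC KO. Another 28 linked genes were higher in ESC KO and lower in NP KO, 5 the other way round, and 11 lower in both. The 28 are 8.59% of the linked genes higher in ESC KO, beside 12.5% of the 1222 that were lower in NP KO. Over all genes these shares were 9.25% and 9.56%. The 5 are 10% of the linked genes lower in ESC KO, beside 21.1% of the 1222 that were higher in NP KO. Over all genes the matching shares were 7.07% and 11.1%. The 11 are 22% of the linked genes lower in ESC KO, beside 12.5% of the 1222 that were lower in NP KO. Over all genes the matching shares were 15.5% and 9.56%. The difference between the 2 knock-out effects was tested for 1092 genes. It was positive, with a higher fold change in NP, for 86 (7.88%) and negative for 178 (16.3%), against 6.37% and 7.97% of all genes, with a median difference of -0.33. At broad regions 58 of 156 tested genes (37.2%) were lower and 5 higher.

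Genes that turned direction included guidance, retinoid and receptor genes. Crabp1, a retinoic acid binding protein, stood at 2.21 ± 0.25 in ESC KO and -3.42 ± 0.35 in NP KO in the authors' deposited tables (difference -5.63 ± 0.43, adjusted p 1.29e-34). Slit2 differed by -3.92 ± 0.44 (adjusted p 6.98e-16). The neurotrophin receptor Ngfr stood at 1.21 ± 0.24 and -2.27 ± 0.49 in the authors' deposited tables (adjusted p 1.48e-08). Frem2 turned the other way, from -2.11 ± 0.28 in ESC to 1.44 ± 0.36 in NP in the authors' deposited tables (difference 3.54 ± 0.46, adjusted p 2.92e-12). Foxp1, the largest fall in ESC KO, stood at 0.11 ± 0.33 in NP KO in the authors' deposited table (difference 2.85 ± 0.38, adjusted p 2.58e-11). Bmi1 and Cbx8 rose in both cell types, and less in NP: Bmi1 stood at 2.46 ± 0.29 and 1.14 ± 0.34, and Cbx8 at 3.64 ± 0.57 and 1.39 ± 0.45, in the authors' deposited tables, and the differences passed the test (adjusted p 0.028 and 0.0183). Cdkn2b rose more in NP (difference 3.22 ± 0.63, adjusted p 1.21e-05).

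Rescue in NP was measured against KO, so a gene repressed again lies below 0. In NP KO-L vs KO, 354 of 1302 tested genes (27.2%) were lower and 168 (12.9%) higher, against 13.8% and 10.9% of all genes (median -0.34). In NP KO-S vs KO, 353 of 1277 (27.6%) were lower and 246 (19.3%) higher, against 18.0% and 16.4% of all genes (median -0.21). Gpr50 was lower in both, by -4.31 ± 0.25 and -5.03 ± 0.26 in the authors' deposited tables, and so was Isg15, by -5.47 ± 0.28 and -3.89 ± 0.27. Solute carriers had 17 of 43 lower and 2 higher in KO-L and 17 of 42 lower and 4 higher in KO-S. Developmental transcription factors had 14 of 54 higher in KO-L and 29 of 53 higher in KO-S, with 6 lower in each. Neural precursor markers were higher in 5 of 7 and 7 of 7, and pluripotency markers were higher in 6 of 8 in KO-L (median 2.13) and lower in 4 of 8 in KO-S (median -0.83). The part of these shifts in the result was not tested.

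The isoforms also differed in NP, in the other balance of directions than in ESC. Of 1253 tested genes at narrow regions, 164 (13.1%) were higher in KO-S than in KO-L and 89 (7.10%) lower, against 5.71% and 4.56% of all genes. Both tables share the KO samples. Hic1, at the member with the smallest value, stood at 3.62 ± 0.27 in KO-L and -0.53 ± 0.41 in KO-S in the authors' deposited tables (difference -4.15 ± 0.49, adjusted p 9.5e-15). The retinol carrier Rbp4 stood at -3.96 ± 0.22 in KO-L and -0.07 ± 0.16 in KO-S in the authors' deposited tables (difference 3.88 ± 0.27, adjusted p 8.84e-42). Crabp1 stood at 2.27 ± 0.27 in KO-L and 4.88 ± 0.21 in KO-S in the authors' deposited tables. Ihh stood at -3.64 ± 0.25 and -1.23 ± 0.23 and Ngfr at 4.74 ± 0.32 and 1.64 ± 0.46 in the authors' deposited tables. Dsp, lower with the short isoform in ESC, was higher with it in NP, at -1.87 ± 0.21 in KO-L and 0.19 ± 0.15 in KO-S in the authors' deposited tables (difference 2.06 ± 0.26, adjusted p 2.54e-13). Whether the isoform difference itself changed between ESC and NP was not tested.

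In NP CSex4 the direction over the members was downward. Of 1206 tested genes at narrow regions, 49 (4.06%) were higher and 74 (6.14%) lower, against 4.08% and 1.45% of all genes, with a median of -0.43. The monooxygenase-like gene Moxd1 (-1.65 ± 0.38), the glycolytic regulator Pfkfb3 (-1.65 ± 0.39) and the ephrin receptor Epha7 (-1.56 ± 0.36) fell most in the authors' deposited table. Esrrb (2.44 ± 0.36), Phf19 (2.33 ± 0.36) and the phospholipase Plcg2 (1.94 ± 0.38) rose most in the authors' deposited table. Esrrb is a pluripotency marker, and 6 of 8 such markers were higher in NP CSex4 (median 2.39, summed mean count 27700) while 3 of 7 neural precursor markers were lower. Their part in the result was not tested. In NP Deltaex4, 2 of 1309 tested genes (0.153%) were higher and 2 lower, against 0.0289% and 0.0520% of all genes, and the median was 0.15. Of the linked genes with a fold change, 74 (5.35%) had an unadjusted p under 0.05, against 1.90% of all genes. The share expected there without any effect is 0.05, which the first is near and the second is under. The 2 that rose in the authors' deposited table were the anterior neural transcription factor Otx2 (4.05 ± 0.55, adjusted p 2.16e-09) and Mab21l2 (2.53 ± 0.58), and the 2 that fell were the natriuretic peptide receptor Npr1 (-1.77 ± 0.43) and Gm52429 (-2.45 ± 0.44). Deltaex4 exceeded CSex4 at 25 of 1224 genes (2.04%) and lay below it at 9 (0.735%), against 0.504% and 1.28% of all genes. Phf19 (difference -3.46 ± 0.56, adjusted p 7.38e-07) and Esrrb (-2.70 ± 0.49, adjusted p 1.89e-05) were lower in Deltaex4, and Moxd1 (2.32 ± 0.58, adjusted p 0.00714) and Vim (2.03 ± 0.58, adjusted p 0.0323) were higher.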

How the data were processed

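RNA-seq of 32 ESC and NP samples enters as 13 tables of the authors' comparisons. Of the ChIP-seq of 55 ESC samples, only 2 region lists enter, for H3K27me3 and Suz12. ChIP-seq of other targets was not used. The submitters' processing notes name the mm10 and dm3 builds, Bowtie, TopHat, DESeq2 and DiffBind, with no roles or versions. In the deposited tables baseMean, a signal, averages read counts after division by size factors. The deposited fold changes and standard errors are log2 values, and each deposited p-value, raw or adjusted, belongs to the authors' DESeq2 test, whose statistic is deposited as a score. The deposited region value lies between 0 and 1, and the headers name DiffBind at a false discovery rate of 5%.

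Count tables had been allowed for, but the files hold the authors' statistics, so these were used as deposited. Python 3.11.15 with pandas 2.3.3, numpy 2.4.6 and scipy 1.17.1 linked genes whose RefSeq start (GRCm38.p6) lay inside a region or within 2500 bp. Starts of 4395 of 21887 protein-coding genes are not in that table, and these genes were not linked. Calls used 0.05 as the limit on the adjusted p. Differences between 2 comparisons were tested as the difference of the log2 values over the root of the summed squared standard errors (two-sided normal test, Benjamini-Hochberg over genes whose baseMean reached 10 in both), a test chosen after seeing the data and tried on simulated data.

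Members and lists were chosen with earlier results of these data known. Named genes were the 8 largest rises and falls in ESC KO and the 3 largest in the other tables, among linked called genes with baseMean at or above the median of tested genes, and the 3 called members of each group with the highest baseMean in ESC KO. Bcor, Dsp, Hic1, Ihh, Inhbb, Kank4 and Mras, the genes behind counts of 5 or fewer, and values of named genes in other tables, were chosen after their values were seen.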

Additional observations from a re-analysis of the deposited data

Results flagged for a closer look

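The effect of the Suz12 knock-out on genes at narrow regions differed between ESC and NP. In the test of the difference of the 2 deposited log2 fold changes, with Benjamini-Hochberg adjustment over 14631 genes, 86 of 1092 tested genes had a higher fold change in NP and 178 a lower one, against 6.37% and 7.97% of all genes. The 2 comparisons share no library. Neural markers were lower in NP KO, and their part in these counts was not tested.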

How the results depend on the processing

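Of 461 values under alternatives, 409 moved by less than their interval or stayed within 1.5 times, and 52 moved more. Reversals of direction were not counted. In NP CSex4 the balance of 49 higher and 74 lower genes was lost at an adjusted p under 0.01, with 27 higher and 26 lower. Starts inside only, all annotated genes and genes linked to no other class moved none. The limit of 0.01 on region values removed no region, because the largest values were 6.42e-05 (H3K27me3) and 6.11e-05 (Suz12). Its 49 unmoved values, counted among the 409, were therefore fixed in advance and say nothing about robustness. Links by a gene end for genes with no known start (added after seeing the data) moved no share or median, but with more genes linked 3 counts passed 1.5 times: 40 against 26 higher in ESC KO-S3D, 262 against 168 higher in NP KO-L against KO, and 273 against 178 lower in NP KO minus ESC KO. At an adjusted p under 0.01 the shares higher and lower were 18.8% and 2.70% in ESC KO, 7.50% and 8.90% in KO-S, 10.5% and 3.69% in KO-L3D, 1.44% and 1.34% in KO-S3D, 3.83% and 0.207% in CSex4, and 3.80% higher in KO-L. In NP they were 15.6% and 10.1% in KO, 19.5% and 22.5% in WT vs KO, 10.6% and 23.1% in KO-L against KO, 15.8% and 23.4% in KO-S against KO, and 2.24% and 2.16% in CSex4. For the differences they were 5.22% and 9.98% (NP KO minus ESC KO), 1.21% and 8.95% (ESC KO-S minus KO-L), and 8.94% and 4.55% (NP KO-S minus KO-L). Only genes with a mean count of at least 10 gave 29.6% higher in ESC KO.

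With a width limit of 5000 bp, 1266 regions were left, the medians were 0.55 in ESC KO, 0.44 in KO-L and -0.13 in Deltaex4, 25.0% were lower in NP KO-S vs KO and 14.1% were lower in NP KO minus ESC KO. Fewer regions make fewer calls: 168 against 329 higher in ESC KO, and 63 and 72 against 107 and 127 higher and lower in KO-S. With at least 50% of the region covered by Suz12, 948 regions were left, with 134 higher in ESC KO. KO-S3D then had 4.63% higher, NP KO 17.6% higher (median 0.18), NP WT vs KO 25.6% higher and 25.6% lower, NP KO-L vs KO 24.5% lower, NP KO-S vs KO 21.9% higher, and NP CSex4 a median of -0.50. Linking by either gene end gave medians of 0.45 in KO-L, 0.32 in CSex4, -0.13 in Deltaex4, 0.16 in NP KO, -0.24 and -0.10 in NP KO-L and KO-S against KO, and -0.25 for ESC KO-S minus KO-L, and 268 against 169 genes lower in NP KO. With WT replicates 3 and 4 in NP, 28.2% were higher and 22.8% lower in KO.

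No paired analysis was possible because the tables hold statistics of comparisons and their columns carry no samples. Leaving out replicates, other normalizations and refits with edgeR or DESeq2 were not run for the same reason. Depth limits genes with low counts, and their calls depend on the authors' filter.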
